A study of Mus musculus with 2 samples.

Results

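Glycolysis and hypoxia response genes were examined as a set of 34 mouse genes, taken by symbol from the 32285 genes listed in the count files, and all 34 were found. They comprise 19 glycolysis members (glucose transporters, the enzymes from glucose to lactate and their regulators) and 15 hypoxia response members (oxygen sensors and genes that cells raise when oxygen is short). The RNA came from syngeneic fibrosarcoma tumors implanted subcutaneously in C57BL/6 animals of wild-type genotype, dissociated with collagenase b and DNase I at 37 degrees C over 45 min and then cleared of red cells. A magnetic column split the suspension into an iron-negative flowthrough and an iron-positive eluate, and each fraction gave 1 single-cell library made with the 10x Genomics 3' v3 chemistry. The genotype, the tumor model and the digestion were shared by both groups, and the labels give no number of mice, no age and no name for the tumor line. The files hold no measure of iron in a cell. With 1 library a group no difference has a replicate check, and no p-value is given. Intervals are exact 95% (Clopper-Pearson) intervals that cover counting error only.

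Cells make ATP from glucose in the cytosol by glycolysis, and rely on it more when oxygen limits the mitochondria. When oxygen is plentiful, prolyl hydroxylases mark the transcription factor subunit encoded by Hif1a for destruction, and when oxygen falls the factor accumulates, binds short DNA cores near target genes and raises glycolytic enzymes, mitophagy receptors and secreted signals. Macrophages in tumors are known to gather in poorly oxygenated regions, where this program is active, but inflammatory signals can raise parts of the same program in air.

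The DNA cores that the factor is known to contact, ACGTG and GCGTG, were looked for on both strands in RefSeq promoter windows (GRCm38.p6, 250 bases before to 50 bases after a start site). Of the 34 members, 30 matched a window by symbol, and Slc2a3, Bnip3l, Ero1l and Ndrg1 did not. A core was present in at least 1 window of 28 of these 30 genes (93.3%), against 12628 of 27025 symbols over the whole table (46.7%). It was present in 16 of 18 glycolysis members and 12 of 12 hypoxia response members. Members' windows were richer in G and C, with a median of 65.0% against 52.7%, and by window the core was in 35 of 42 (83.3%), against 43.8% of all 32851 windows and 64.4% of the 8555 windows between 57.1% and 69.0% GC, the members' middle range. The palindrome CACGTG holds ACGTG on both strands and is also bound by other factors. It was in 9.52% of members' windows, 7.15% of all windows and 10.5% of the windows in the members' middle GC range. A match describes letters and is not evidence of binding.

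The 250 bases before the start site are printed for 6 members on which the results below turn, with each core in capitals. Ldha and Pgk1 stand for the glycolytic enzymes, Bnip3 and Egln3 for the members that marked the high states in both libraries, and Ankrd37 and Adm for those highest in endothelial cells.
Ldha, chr7:46845554-46845803, plus strand: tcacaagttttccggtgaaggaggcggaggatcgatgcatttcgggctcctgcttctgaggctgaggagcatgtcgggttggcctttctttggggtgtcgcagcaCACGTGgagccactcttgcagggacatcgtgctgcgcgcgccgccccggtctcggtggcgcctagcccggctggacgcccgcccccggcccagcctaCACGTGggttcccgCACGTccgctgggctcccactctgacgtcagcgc
Pgk1, chrX:106186850-106187099, plus strand: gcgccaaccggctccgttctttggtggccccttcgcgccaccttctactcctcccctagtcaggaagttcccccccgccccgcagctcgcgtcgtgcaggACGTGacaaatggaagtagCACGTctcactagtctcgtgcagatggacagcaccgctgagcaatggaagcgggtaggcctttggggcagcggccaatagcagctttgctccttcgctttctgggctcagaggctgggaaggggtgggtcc
Bnip3, chr7:138909507-138909756, minus strand: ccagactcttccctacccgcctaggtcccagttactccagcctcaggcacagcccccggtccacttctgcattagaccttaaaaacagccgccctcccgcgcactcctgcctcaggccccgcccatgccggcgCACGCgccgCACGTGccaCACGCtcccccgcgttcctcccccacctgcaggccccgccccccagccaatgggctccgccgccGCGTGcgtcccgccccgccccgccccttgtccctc
Egln3, chr12:54203875-54204124, minus strand: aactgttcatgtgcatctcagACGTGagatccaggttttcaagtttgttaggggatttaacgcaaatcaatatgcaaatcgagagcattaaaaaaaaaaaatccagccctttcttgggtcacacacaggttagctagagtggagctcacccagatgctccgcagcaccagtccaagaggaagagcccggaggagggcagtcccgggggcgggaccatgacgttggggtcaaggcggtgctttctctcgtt
Ankrd37, chr8:45999851-46000100, minus strand: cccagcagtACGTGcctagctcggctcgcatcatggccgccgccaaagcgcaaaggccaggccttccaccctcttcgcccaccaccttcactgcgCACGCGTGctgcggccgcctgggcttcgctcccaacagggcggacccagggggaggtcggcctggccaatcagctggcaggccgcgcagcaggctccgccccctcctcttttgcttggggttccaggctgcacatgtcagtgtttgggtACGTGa
Adm, chr7:110627407-110627656, plus strand: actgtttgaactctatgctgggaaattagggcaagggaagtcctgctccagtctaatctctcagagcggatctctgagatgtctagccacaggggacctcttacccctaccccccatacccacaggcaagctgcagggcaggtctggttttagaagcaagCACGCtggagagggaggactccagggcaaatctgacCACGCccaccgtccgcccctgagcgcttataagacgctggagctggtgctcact
With CACGTG counted once on each strand, the 6 windows held 5 cores in Ldha, 2 in Pgk1, 5 in Bnip3, 1 in Egln3, 4 in Ankrd37 and 2 in Adm. In the GENCODE annotation of the same build, 13 bases of the Bnip3 window and 17 bases of the Ankrd37 window lie in annotated exons, and the other windows touch no exon. The Ldha window lies within the span of Ldha, the Ankrd37 window within the spans of Ankrd37 and Lrp2bp, and the Adm window within that of Gm28863.

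Depth was 132796517 UMIs (unique transcript counts) over 10124 barcodes in the iron-negative library and 129921053 over 13668 in the iron-positive one. Cells with at most 15% mitochondrial UMIs and at least 200 genes were kept, 9403 with a median of 13017 UMIs and 12143 with a median of 7349 UMIs. The members took 0.810% and 0.886% of the kept UMIs. Marker genes, none of them a member, gave 9167 and 9686 phagocytes (monocytes and macrophages), 97.5% and 79.8% of kept cells, and all 15 phagocyte markers were above 10 CPM (counts per 1e6 UMIs of the summed cells) in both. The iron-positive library also held 671 endothelial, 62 pericyte or smooth muscle and 537 mesenchymal cells, against 18, 1 and 68 in the iron-negative library. Tumor cells and fibroblasts were not separated in the mesenchymal class. The libraries shared 85 barcodes, of which 52 iron-negative and 43 iron-positive phagocytes were part. Without them the members' median between the libraries was 0.23 and 7 members were past 1.5-fold, the same values as with them.

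Phagocytes were sorted into 12 states by marker genes, and each state was set against the other phagocytes of its own library. The members were highest in 2 states in both libraries. These were the phagocytes high in Mmp12 and Cd36, a matrix elastase and a lipid scavenger receptor, and the phagocytes high in Arg1 and Mmp9, arginase and a gelatinase. They were lowest in phagocytes high in Fcrls and Cx3cr1, genes known from resident macrophages, by median and by summed level in both libraries. Of the 34 members, 29 had their highest level among the 12 states in Mmp12 Cd36 cells in the iron-negative library and 20 did in the iron-positive library. The lowest level was in Fcrls Cx3cr1 cells for 10 and 17 members and in cycling cells for 12 and 5.

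The members summed to 16680 CPM in iron-negative Mmp12 Cd36 cells and 14330 CPM in iron-positive ones. In Arg1 Mmp9 cells the sums were 11850 and 12260 CPM, and in Fcrls Cx3cr1 cells 6318 and 6203 CPM. The order of these 3 states was thus the same in the 2 libraries, with the highest and lowest more than 2-fold apart. Per cell, after each cell was thinned to 2000 UMIs, the median sum of hypoxia response UMIs was 8 and 7 in Mmp12 Cd36 cells, 6 and 6 in Arg1 Mmp9 cells, and 2 and 2 in Fcrls Cx3cr1 cells, with no cell left out. Before thinning the medians scaled to 2000 UMIs were 7.83 and 6.75, 5.69 and 6.11, and 2.33 and 2.27. The cells of a state overlapped widely, since the middle 90% of Mmp12 Cd36 cells ran from 2 to 16.3 and from 1 to 16 hypoxia response UMIs.

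**Figure D1:**
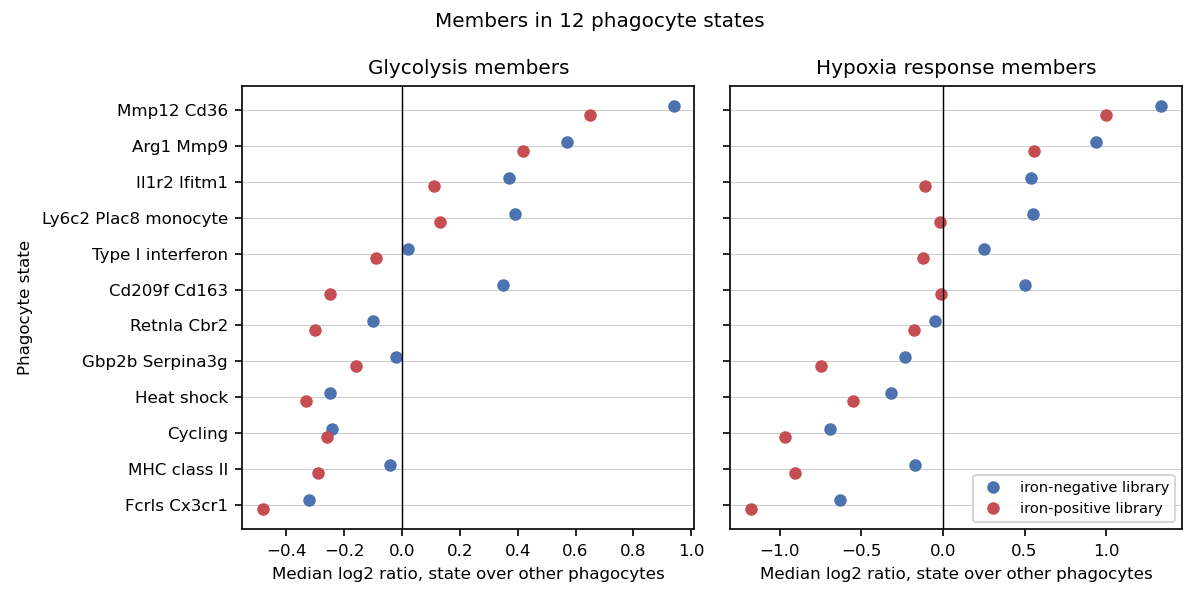
Median log2 ratio of the glycolysis members (left) and hypoxia response members (right) in each of 12 phagocyte states over the other phagocytes of the same library, with 1 point per library. Mmp12 Cd36 cells sit farthest right in both panels (0.94 and 0.65 for glycolysis, 1.34 and 1.0 for the hypoxia response) and Fcrls Cx3cr1 cells farthest left in the iron-positive library (-0.48 and -1.18).

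The glycolysis and hypoxia response medians moved together over the 12 states, with a Pearson r of 0.97 in the iron-negative and 0.88 in the iron-positive library (Spearman 0.95 and 0.80). The state medians of all members had r = 0.94 between the libraries (Spearman 0.91). These correlations are descriptions over 12 states whose points share a library, a depth and, through the comparison group, cells.

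In Mmp12 Cd36 cells, 28 of the 33 members above 10 CPM were at least 1.5-fold higher than in other iron-negative phagocytes, where 9.25% of all genes were. In the iron-positive library 21 of 33 were, against 5.63% of all genes. Adm and P4ha2 passed that limit through the state alone, and of the 31 members above it on both sides 26 and 19 were higher. None of the members above 10 CPM was 1.5-fold lower, where 18.1% and 13.4% of all genes were. The members' median log2 ratio was 1.06 and 0.73, beside -0.15 and -0.16 over all genes. The state held 95 iron-negative and 1078 iron-positive cells (1.04%, 0.839 to 1.27, and 11.1%, 10.5 to 11.8, of phagocytes), with median depths of 10206 and 10328 UMIs.

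Among the oxygen sensors, Egln3, a prolyl hydroxylase that is itself induced by low oxygen, stood at 91.28 CPM in iron-negative Mmp12 Cd36 cells and 11.73 CPM in the other phagocytes, 7.82-fold (6.26 to 9.57). In the iron-positive library it stood at 106.4 against 24.41 CPM, 4.36-fold (4.06 to 4.68). Its next highest level among the 12 states was in Arg1 Mmp9 cells, at 44.57 CPM in the iron-negative and 83.51 CPM in the iron-positive library. Both libraries thus had Egln3 near 100 CPM in Mmp12 Cd36 cells and far lower in the summed other phagocytes, though not in every other state. Egln1, the main oxygen-sensing hydroxylase, was at 159.7 against 68.36 CPM and at 135.1 against 72.5 CPM. Hif1a, the regulated transcription factor subunit, went with the others in only 1 library, at 421.2 against 335.0 CPM and at 314.8 against 340.5 CPM. Its highest level was in Ly6c2 Plac8 monocytes in both libraries, at 531.6 and 542.4 CPM, and its lowest in Fcrls Cx3cr1 cells, at 259.7 and 231.6 CPM.

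Of the mitochondrial members, Bnip3, a receptor that sends mitochondria to autophagy, was at 696.0 against 157.1 CPM in the iron-negative and 600.2 against 222.9 CPM in the iron-positive library, 4.43-fold (4.11 to 4.77) and 2.69-fold (2.62 to 2.77). Its relative Bnip3l was 2.23-fold (1.94 to 2.53) higher, at 219.6 against 98.72 CPM, and at 222.0 against 110.8 CPM. Higd1a, a small protein of the respiratory chain, was higher by less, with log2 ratios of 0.65 and 0.48.

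In the secretory pathway, Ero1l, the oxidase that forms disulfide bonds in the endoplasmic reticulum, was at 548.6 against 91.24 CPM and at 424.1 against 133.0 CPM, 6.02-fold (5.52 to 6.54) and 3.19-fold (3.08 to 3.3). P4ha1, a collagen prolyl hydroxylase subunit, had log2 ratios of 0.77 and 0.55. Its relative P4ha2 was at 43.74 against 4.15 CPM and at 33.5 against 8.028 CPM, and it is named although it lies under 20 CPM in phagocytes as a whole, a choice made after its values were seen.

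Among the remaining hypoxia response members, Ndrg1, a growth and stress response gene, was at 223.4 against 56.46 CPM and at 186.7 against 71.42 CPM. Hilpda, which slows the breakdown of lipid droplets, was at 688.4 against 272.7 CPM and at 710.6 against 356.6 CPM. Ankrd37, an ankyrin repeat gene used as a hypoxia marker, was at 30.43 against 11.09 CPM and at 48.32 against 19.37 CPM. All 3 were at least 1.99-fold higher in the state in each library. Ddit4, an inhibitor of the growth kinase mTOR, had log2 ratios of 1.23 and 0.92. Mxi1, a Myc antagonist, was the least raised of the group, at 0.49 and 0.22.

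Adm, the secreted vessel-dilating peptide adrenomedullin, is named after its values were seen, since it too lies under 20 CPM overall. It stood at 96.04 CPM in iron-negative Mmp12 Cd36 cells against 1.23 CPM in the other phagocytes, but only 9 of 95 cells held it and 1 cell gave 46 of the 101 UMIs. Without that cell the level was 53.61 CPM. In the iron-positive library it was at 48.8 against 9.383 CPM, from 140 of 1078 cells, and at 46.51 CPM without the highest cell. In Fcrls Cx3cr1 cells of the same library, with a median of 11453.5 UMIs, 11 of 420 cells held Adm. The shares were 13.0% and 2.62% of cells as sequenced, and 5.75% (4.44 to 7.31) and 0.238% (0.00603 to 1.32) after each cell was thinned to 2000 UMIs.

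Glucose entry and the enzymes moved less far but in the same direction. Slc2a1, the main glucose transporter, was at 340.4 against 97.66 CPM and at 273.1 against 117.0 CPM, 3.49-fold (3.13 to 3.87) and 2.33-fold (2.24 to 2.43). Pgk1, which makes ATP in the later part of the pathway, was at 1448 against 465.6 CPM and at 1136 against 517.6 CPM. These were the largest ratios among the glycolysis members above 20 CPM in both libraries. Gpi1, an early isomerase, followed at 2.35-fold (2.21 to 2.51) in the iron-negative library, and Aldoa, the aldolase, had log2 ratios of 1.05 and 0.88. The 13 enzymes lay between log2 ratios of 0.33 and 1.64 in the iron-negative and between 0.30 and 1.13 in the iron-positive library. Reads of Gapdh, Ldha, Eno1, Pgam1, Tpi1, Pkm and Aldoa can be shared with near-identical copies in the genome, so their counts are uncertain.

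The regulators went different ways. Slc16a3, the lactate exporter, was at 374.6 against 177.6 CPM and at 297.1 against 189.5 CPM. Pdk1, a kinase that inhibits pyruvate dehydrogenase, had log2 ratios of 0.70 and 0.41. Both enzymes that make the activator of phosphofructokinase stood apart, since Pfkfb4 was lower in both libraries (17.12 against 23.87 CPM and 19.17 against 20.86 CPM, with both intervals of the ratio spanning 1) and Pfkfb3 was at 94.13 against 70.73 CPM but at 65.63 against 80.49 CPM. Slc2a3, another glucose transporter, had 1 and 4 UMIs in the state and is not compared.

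**Figure D2:**
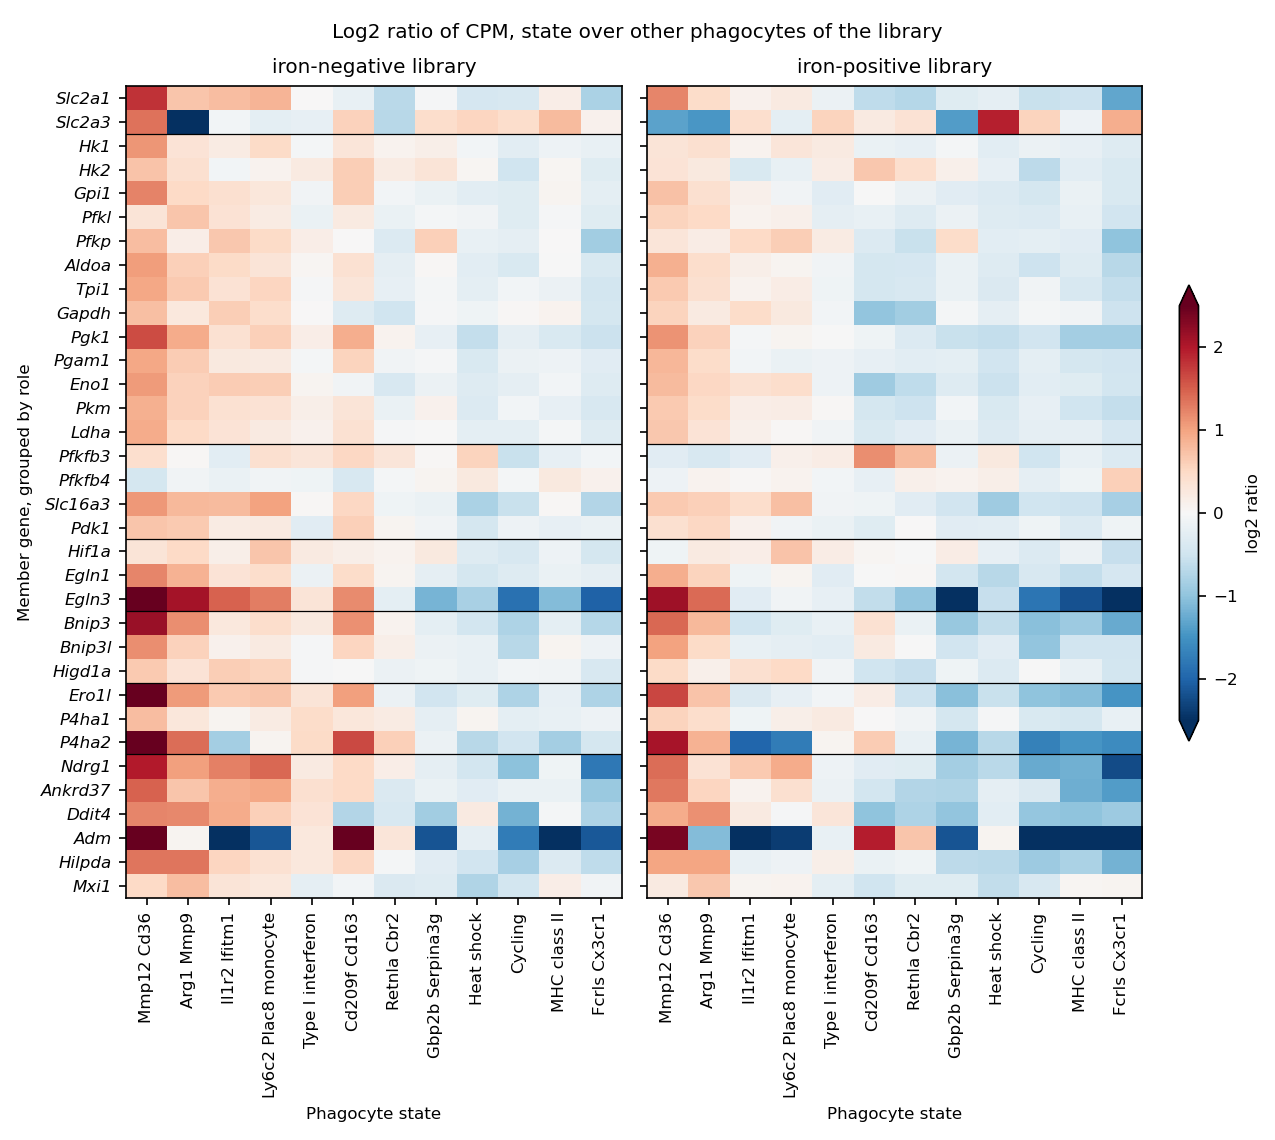
Log2 ratio of CPM for each of the 34 members (rows, grouped by role) in each of 12 phagocyte states (columns) over the other phagocytes, for the iron-negative library (left) and the iron-positive library (right), with the colour scale ending at 2.5 in each direction. The column of Mmp12 Cd36 cells is red for 30 members in both libraries and that of Fcrls Cx3cr1 cells is blue for 31, while Pfkfb4 departs from both.

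In Arg1 Mmp9 cells (507 and 646 cells, 5.53% and 6.67% of phagocytes), 18 of 32 members were at least 1.5-fold higher in the iron-negative and 8 of 33 in the iron-positive library, against 3.36% and 1.98% of all genes. Without P4ha2 and Adm, which passed the limit through 1 side, the counts were 17 of 31 and 8 of 32. The members' medians were 0.64 and 0.46, beside -0.05 and -0.08 over all genes. Arg1, which defines the state, is itself known to be raised in hypoxic macrophages, although it is no member. Egln3 again led, at 44.57 against 10.55 CPM and 83.51 against 31.39 CPM, 4.23-fold (3.71 to 4.79) and 2.66-fold (2.44 to 2.9). Hilpda was at 640.0 against 255.3 CPM and 738.2 against 374.7 CPM. Ddit4 was at 78.65 against 33.92 CPM and 104.7 against 47.04 CPM, close to its level in Mmp12 Cd36 cells.

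Bnip3 was at 341.2 against 151.4 CPM and 454.8 against 258.8 CPM in Arg1 Mmp9 cells. Ero1l had log2 ratios of 1.06 and 0.71, Ndrg1 1.03 and 0.37, Egln1 0.86 and 0.56, and Ankrd37 0.69 and 0.53. Of the glycolysis members, Pgk1 had 0.93 and 0.57, Slc16a3 0.81 and 0.60, Slc2a1 0.70 and 0.45, Pfkl, a phosphofructokinase subunit, 0.70 and 0.50, Eno1 0.57 and 0.51, and Pdk1 0.66 and 0.51. Mxi1, modest in the Mmp12 Cd36 state, had its highest level of all states here, at 402.1 and 341.0 CPM. Adm parted from the rest, at 2.066 against 2.027 CPM in the iron-negative library and at 7.273 against 15.65 CPM in the iron-positive library, 0.469-fold (0.349 to 0.607). It was the only member above 10 CPM at least 1.5-fold lower there, where 6.4% of all genes were. Pfkfb3 was at 60.78 against 80.08 CPM in the iron-positive library, and Pfkfb4 lay within 0.1 of 0 on the log2 scale in both.

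The 2 high states therefore shared Egln3, Hilpda, Ddit4, Bnip3, Ero1l and Pgk1, while Adm was high in Mmp12 Cd36 cells alone of the pair. Whether the states differ beyond sampling of mice cannot be tested with 1 library a group. Clustering of the phagocytes without the members placed most Mmp12 Cd36 cells (76.5%) and the largest share of Arg1 Mmp9 cells (36.3%) in the same cluster.

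In Fcrls Cx3cr1 cells (1520 and 420 cells, 16.6% and 4.34% of phagocytes) the members were lower, with medians of -0.40 and -0.57 beside 0.05 and 0.12 over all genes. Of 31 and 33 members above 10 CPM, 10 and 16 were at least 1.5-fold lower, against 4.08% and 5.84% of all genes. Of these, Egln3 and Ankrd37 in both libraries and Adm and P4ha2 in the iron-positive library passed the limit through the other phagocytes alone. Among the 29 members above it on both sides 8 and 12 were lower, and the hypoxia response median was -0.44 and -0.57 in place of -0.63 and -1.18. Egln3 was at 3.518 against 14.38 CPM and at 4.168 against 37.85 CPM, found in 57 of 1520 and 17 of 420 cells (3.75% and 4.05%, and 0.592% and 0.714% after thinning to 2000 UMIs). Ndrg1 was at 19.35 against 66.47 CPM and at 19.45 against 91.74 CPM, 0.291-fold (0.264 to 0.321) and 0.213-fold (0.172 to 0.259). Levels of both genes within the state were nearly the same in the 2 libraries, and the comparison cells differed. Ero1l (-0.78 and -1.47), Ankrd37 (-0.93 and -1.40), Slc2a1 (-0.79 and -1.29), Bnip3 (-0.71 and -1.26), Hilpda (-0.63 and -1.18), Ddit4 (-0.77 and -0.91), Slc16a3 (-0.74 and -0.83), Pgk1 (-0.54 and -0.85), Aldoa (-0.38 and -0.69) and Tpi1, the triose phosphate isomerase (-0.45 and -0.59), were lower on the log2 scale. So was Pfkp, the platelet-type phosphofructokinase, at 53.56 against 97.22 CPM and 50.61 against 102.2 CPM. Pfkfb4 went the other way, at 25.29 against 23.48 CPM and 30.17 against 20.04 CPM, 1.51-fold (1.27 to 1.78) in the iron-positive library, where it was the only member past 1.5-fold upward and 4.94% of all genes were. Mxi1 hardly differed, at -0.08 and 0.06.

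**Figure D3:**
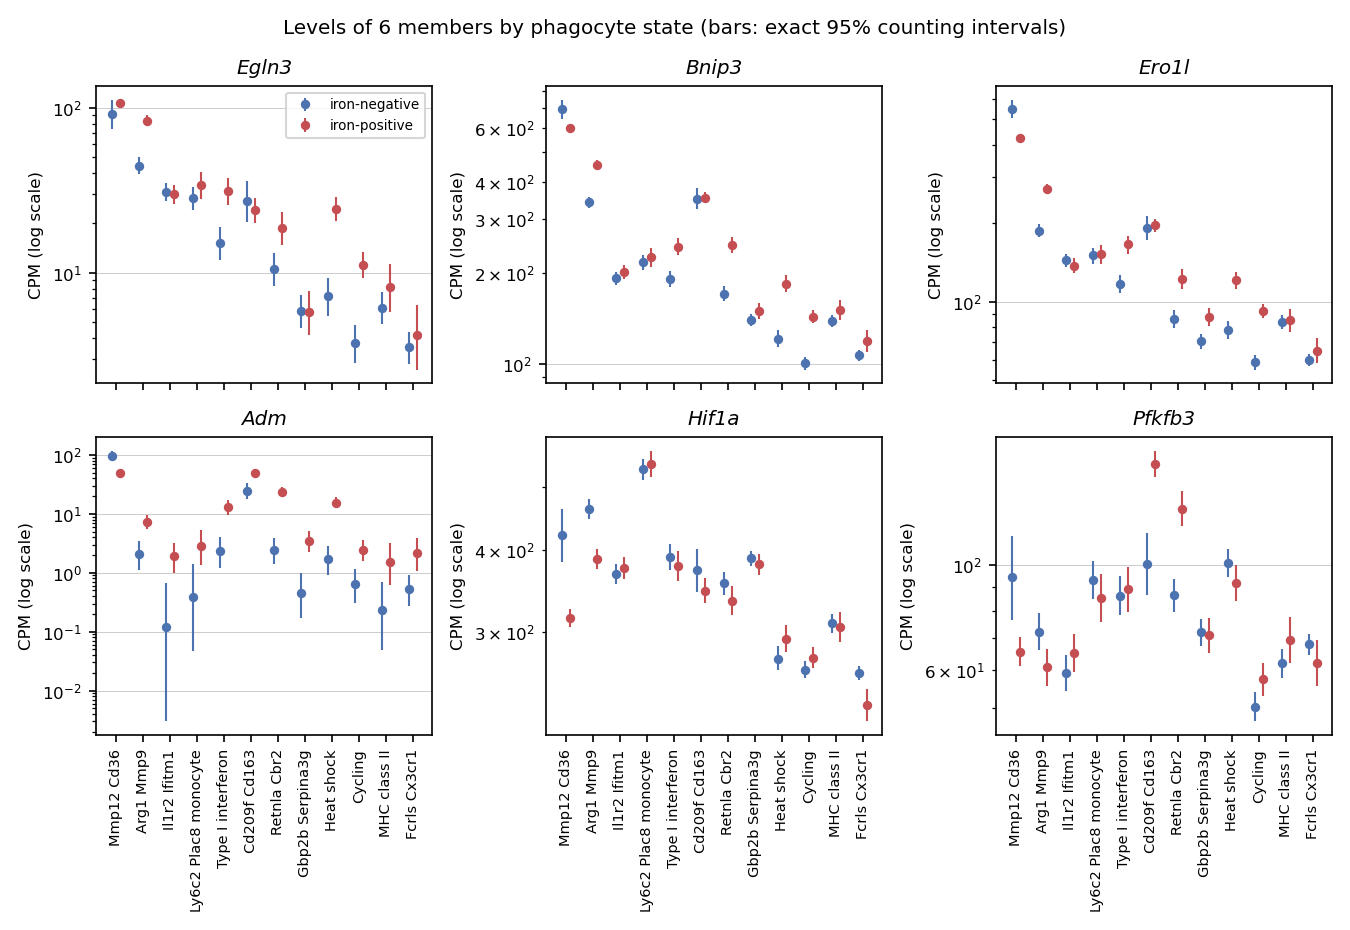
CPM of Egln3, Bnip3, Ero1l, Adm, Hif1a and Pfkfb3 in each of 12 phagocyte states (log axis), with 1 point per library and exact 95% counting intervals. Egln3 spans from 3.518 to 91.28 CPM in the iron-negative library, whereas Hif1a spans only from 259.7 to 531.6 CPM and peaks in Ly6c2 Plac8 monocytes.

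The other states lay between. Ly6c2 Plac8 monocytes and Il1r2 Ifitm1 cells were above the rest in the iron-negative library, with medians of 0.44 and 0.38 and with 10 and 11 members at least 1.5-fold higher, against 5.82% and 3.46% of all genes. In the iron-positive library their medians were 0.08 and 0.09. Slc16a3 had its highest iron-positive level in the monocytes, at 338.2 CPM, and stood at 345.0 CPM in iron-negative monocytes. Interferon-responding cells had medians of 0.06 and -0.09. Those of Retnla Cbr2 (-0.08 and -0.29), MHC class II (-0.10 and -0.43), Gbp2b Serpina3g (-0.11 and -0.31), heat shock (-0.29 and -0.35) and cycling cells (-0.31 and -0.40) were below 0 in both libraries. In the iron-positive library 11 of 33 members were at least 1.5-fold lower in MHC class II cells (10% of all genes were), 10 in cycling cells (7.13%), 9 in Gbp2b Serpina3g cells (5.95%), 8 in heat shock cells (2.59%) and 6 in Retnla Cbr2 cells (8.15%). In the iron-negative library 7 of 31 were in cycling cells (4.37%) and 4 of 31 in heat shock cells (2.83%). Some of these members passed the 10 CPM limit through the other phagocytes alone. Of the iron-positive members above it on both sides, 8 of 30 were lower in MHC class II cells and 8 of 31 in cycling cells. The counts were 6 of 30 in Gbp2b Serpina3g cells and 7 of 32 in heat shock cells. In the iron-negative library 6 of 30 were lower in cycling cells and 3 of 29 in heat shock cells.

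Cd209f Cd163 cells (162 and 553 cells), named for a lectin and the haemoglobin scavenger receptor, differed between the libraries. The members' median was 0.46 in the iron-negative library (9 members higher and 1 lower of 33, against 11.2% and 12% of all genes) and -0.20 in the iron-positive library (4 higher and 5 lower, against 13.0% and 13.9%). Without Adm and P4ha2, which passed the limit through the state alone in the iron-negative library, 7 of 31 were higher there and the median was 0.39. Of the 34 members, 17 had opposite signs in the 2 libraries. Pgk1 was at 877.1 against 468.0 CPM in the iron-negative and 561.9 against 607.5 CPM in the iron-positive library, and Egln3 was at 27.27 against 12.18 CPM and 23.82 against 36.76 CPM. Gapdh was lower in both, at 1218 against 1519 CPM and 857.0 against 1704 CPM. Some members were higher in both, namely Adm at 24.49 against 1.701 CPM and 49.22 against 12.55 CPM, Pfkfb3 at 100.7 against 70.49 CPM and 163.4 against 72.53 CPM, and Hk2, the inducible hexokinase, at 224.8 against 147.0 CPM and 287.4 against 180.6 CPM. A list of 12 stress and immediate early genes was mixed in this state. Of the 10 above 10 CPM, 2 and 4 were at least 1.5-fold higher and 1 and 0 lower. Junb was higher, at 2812 against 1579 CPM and 2620 against 1463 CPM. Hspa1a (-0.43 and -0.22) and Hspa1b (-0.81 and -0.47) were lower on the log2 scale. The 12 genes summed to 5146 and 5593 CPM in the state and to 3582 and 3016 CPM in Mmp12 Cd36 cells. Sums of this size were not particular to it, with 5315 and 5000 CPM in Retnla Cbr2 cells and 7568 and 7615 CPM in heat shock cells. The part of these genes in the result was not tested.

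Adm in iron-negative Cd209f Cd163 cells came from 13 of 162 cells, 1 of which gave 20 of 44 UMIs, and the level without it was 13.4 CPM. In the iron-positive library 87 of 553 cells (15.7%) held it, and at 2000 UMIs per cell the share was 6.15% (4.3 to 8.49). The 11 endothelial markers summed to 82.0 CPM in iron-positive Cd209f Cd163 cells and to 97.9 CPM in Fcrls Cx3cr1 cells, where Adm was at 2.183 CPM. The mesenchymal markers summed to 172 and 135 CPM in the same cells. In the iron-negative library the endothelial markers summed to 106 CPM in Mmp12 Cd36, 32.3 CPM in Cd209f Cd163 and 40.1 CPM in Fcrls Cx3cr1 cells. The part of these markers in the Adm values was not tested.

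Cells with at least 2 UMIs of Nos2, the inducible nitric oxide synthase, were compared as a gate of their own and numbered 634 and 824. The members' medians in them were 0.72 and 0.65, and 25 of 32 and 18 of 33 members were at least 1.5-fold higher, against 4.22% and 3.49% of all genes. After all Mmp12 Cd36 and Arg1 Mmp9 cells were removed from both sides the medians were 0.69 and 0.65, with 22 and 21 members higher (4.12% and 3.29%). Adm, P4ha2 and Slc2a3 were at 2.052, 4.487 and 0.5509 CPM in iron-negative phagocytes as a whole. Any of them counted there passed the 10 CPM limit through the gated cells alone. The counts were not redone without such members. By the medians, the higher level of the members in Nos2 cells was nearly as large without those 2 states. Gated cells had median depths of 13806 and 11654 UMIs against 13697.5 and 10192 in the other cells.

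Genes of the same pathway outside the member list were also measured (42 genes, of which 26 were above 10 CPM in the Mmp12 Cd36 comparison). In Mmp12 Cd36 cells 11 were at least 1.5-fold higher and 2 lower in the iron-negative library, against 9.25% and 18.1% of all genes. In the iron-positive library 8 were higher and 0 lower, against 5.63% and 13.4%. The medians were 0.51 and 0.33. When all phagocytes were compared between the libraries, 23 of the 42 genes were above 10 CPM. Genes that passed the limit through 1 side alone stayed in the counts of this and the other states, which were not redone without them. Vegfa, the vessel growth factor and a textbook hypoxia target, was at 579.1 against 289.4 CPM and 594.1 against 336.2 CPM. In Arg1 Mmp9 cells it was at 529.9 against 278.2 CPM and 631.2 against 347.7 CPM, and in Fcrls Cx3cr1 cells at 203.5 against 311.6 CPM and 200.9 against 382.8 CPM. Vegfa was thus above the other phagocytes in both high states and below them in Fcrls Cx3cr1 cells, and its highest of these levels was in Mmp12 Cd36 cells in the iron-negative and in Arg1 Mmp9 cells in the iron-positive library. The glycogen genes were high as well, with Gys1, glycogen synthase, at log2 ratios of 1.77 and 1.12 and Gbe1, the branching enzyme, at 1.63 and 1.69 in Mmp12 Cd36 cells. Fam162a, a hypoxia-induced mitochondrial gene, had 1.49 and 1.06, Pgm1, phosphoglucomutase, 1.34 and 0.79, and the cytokine Mif 1.04 and 0.88. Ak4, a mitochondrial adenylate kinase, was at 20.92 against 2.694 CPM in the iron-negative library, where it passed the 10 CPM limit through the state alone. In Arg1 Mmp9 cells 7 and 2 of 24 such genes were higher, against 3.36% and 1.98% of all genes. In Fcrls Cx3cr1 cells 2 and 8 of 23 were lower, against 4.08% and 5.84%. The 8 respiratory chain genes had medians of -0.32 and -0.15 in Mmp12 Cd36 cells and -0.01 and 0.01 in Fcrls Cx3cr1 cells.

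Between the fractions, all phagocytes were compared as summed cells. The hypoxia response members were higher in iron-positive phagocytes, with a median log2 ratio of 0.56 and 7 of 15 at least 1.5-fold higher. Of these 7, Adm and P4ha2 passed the 10 CPM limit through the iron-positive library alone, and of the 13 above it in both libraries 5 were higher, with a median of 0.51. Markers of other classes moved with this comparison, since the mesenchymal markers summed to 1.415 per 10000 UMIs in iron-positive and 0.3275 in iron-negative phagocytes and the endothelial markers to 1.123 and 0.6913. Their part in the result was not tested. The glycolysis members had a median of 0.14 with 0 of 18 past 1.5-fold in either direction. Over all 33 members above 10 CPM the median was 0.23, beside -0.11 for all 7714 genes, and 7 were higher and 0 lower, against 2.28% and 0.596% of all genes.

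Egln3 was at 35.96 CPM in iron-positive and 12.41 CPM in iron-negative phagocytes, 2.9-fold (2.73 to 3.08). Ankrd37 was at 23.65 against 11.29 CPM, 2.09-fold (1.96 to 2.24). Ero1l was at 174.1 against 95.14 CPM, 1.83-fold (1.79 to 1.87). The intervals of all 3 lay above 1.5-fold. Bnip3 was at 277.1 against 162.0 CPM, 1.71-fold (1.68 to 1.74), and Ndrg1 at 87.78 against 57.96 CPM, 1.51-fold (1.47 to 1.56). Adm was at 15.28 against 2.052 CPM, 7.43-fold (6.51 to 8.54), and P4ha2 at 11.53 against 4.487 CPM, 2.57-fold (2.32 to 2.85). Both are under 20 CPM and were named after their values were seen.

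Below the 1.5-fold line, Hilpda was at 407.0 against 276.6 CPM, Ddit4 at 51.96 against 36.38 CPM and Slc2a1 at 138.3 against 99.7 CPM. Pgk1, Bnip3l, Hk2 and Higd1a had log2 ratios of 0.35, 0.35, 0.33 and 0.29. The other direction was seen in 3 named members, with Eno1 was at 231.8 against 263.1 CPM, Pfkfb4 at 20.52 against 23.82 CPM and Mxi1 at 223.7 against 245.5 CPM. Hif1a was equal, at 336.4 and 336.3 CPM, and Pdk1 at 35.66 and 35.74 CPM.

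The Mmp12 Cd36 state made up 11.1% of iron-positive and 1.04% of iron-negative phagocytes. Without it 2 members were past 1.5-fold in place of 7, and the median over all members was 0.11. Adm and P4ha2 left that count because they fell under the 10 CPM limit. Their log2 ratios without the state, 2.98 and 0.95, were still past 1.5-fold. With the 12 states weighted equally the medians were -0.01 for all members, -0.08 for glycolysis and 0.18 for the hypoxia response, and 1 member was past 1.5-fold. For Adm the log2 ratio was 2.89 as measured, 2.98 without the Mmp12 Cd36 state and 2.17 with equal weights. RNA-poor phagocytes with under 2000 UMIs were 5.92% of iron-negative and 21.1% of iron-positive phagocytes, and with them left out the Adm ratio was 2.88.

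**Figure D4:**
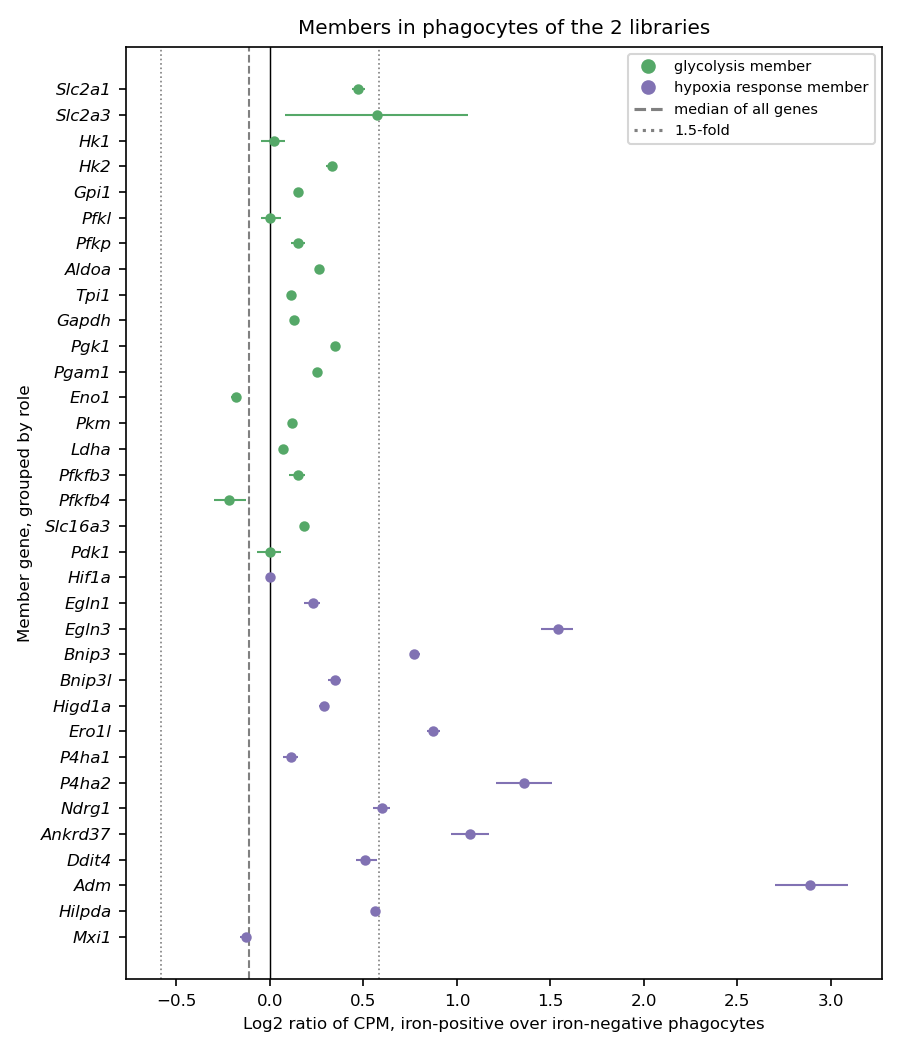
Log2 ratio of CPM in iron-positive over iron-negative phagocytes for each of the 34 members, grouped by role, with exact 95% counting intervals, a dashed line at the median of all genes (-0.11) and dotted lines at 1.5-fold. The 7 members above 10 CPM past the upper dotted line are all hypoxia response genes, and Adm lies farthest right at 2.89.

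Within matched states the difference between the fractions varied in direction. In Mmp12 Cd36 cells the iron-positive to iron-negative median was -0.26 (1 member higher and 2 lower, against 4.99% and 10.1% of all genes). In Cd209f Cd163 cells it was -0.18, with 2 higher and 6 lower (4.52% and 8.02%). There the glycolysis median was -0.47, and Eno1 was at 130.5 against 248.8 CPM. In heat shock cells the median was 0.10 with 6 members higher (2.96%), in Retnla Cbr2 cells 0.07 with 5 higher (2.92%), in cycling cells 0.14 with 4 higher (0.793%), in interferon-responding cells 0.13 with 3 higher (2.5%) and in Arg1 Mmp9 cells 0.07 with 3 higher (2.19%). Egln3 was among the higher members in each of these 5 states, with log2 ratios from 0.83 to 1.76. In cycling cells (11.14 against 3.744 CPM) and heat shock cells (24.39 against 7.191 CPM) it passed the limit through the iron-positive library alone. So did Adm in Retnla Cbr2 (23.47 against 2.413 CPM), heat shock (15.55 against 1.706 CPM) and interferon-responding cells (13.08 against 2.339 CPM). P4ha2 in Retnla Cbr2 and interferon-responding cells and Ankrd37 in Retnla Cbr2 and heat shock cells passed it the same way. The counts were not redone without these. In Fcrls Cx3cr1, Ly6c2 Plac8, Il1r2 Ifitm1, MHC class II and Gbp2b Serpina3g cells no member above 10 CPM was at least 1.5-fold higher (0.441%, 1.97%, 0.709%, 0.608% and 0.743% of all genes were higher), and their medians lay between -0.12 and 0.02.

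Outside the phagocytes the members split by gene. Iron-positive endothelial cells had a median of -0.22 against phagocytes of the same library, with 6 members higher and 14 lower, where 26.5% and 29.5% of all genes were. Adm was at 148.2 CPM in endothelial cells against 15.28 CPM in phagocytes, 9.7-fold (9.02 to 10.4), and Ankrd37 at 175.6 against 23.65 CPM, 7.42-fold (6.98 to 7.9). Pfkfb3, which in vessels supports sprouting, was at 185.6 against 78.54 CPM and Hk1, the constitutive hexokinase, at 103.6 against 36.55 CPM. Hk2 was the reverse, at 10.16 against 185.8 CPM, 0.0549-fold (0.045 to 0.0658). Pfkfb4 was at 1.528 against 20.52 CPM, Mxi1 at 30.21 against 223.7 CPM, Bnip3 at 44.59 against 277.1 CPM and Slc16a3 at 62.93 against 203.6 CPM. Of the 14 lower members, Pfkfb4 passed the 10 CPM limit through the phagocytes alone. Endothelial cells thus had more Hk1 and Pfkfb3 than phagocytes, and less Hk2 and Pfkfb4. Egln3 was at 38.93 against 35.96 CPM, a ratio whose interval (0.977 to 1.2) spans 1.

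Pericyte or smooth muscle cells (62 cells) had a median of -0.65, with 3 members higher and 17 lower (30.3% and 28.1% of all genes). Slc2a3, scarce in phagocytes at 0.818 CPM, was at 43.47 CPM in them. It is among the 3 higher members and passed the 10 CPM limit through this class alone. Ddit4 was at 160.7 against 51.96 CPM, while Mxi1 (27.3 CPM), Bnip3 (40.44 CPM) and Ero1l (44.48 against 174.1 CPM) were far lower than in phagocytes.

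Mesenchymal cells had a median of 0.31 in the iron-negative library (68 cells, 9 higher and 7 lower, against 30.8% and 32.2% of all genes) and -0.39 in the iron-positive library (537 cells, 6 higher and 11 lower, against 29.3% and 28.0%). Of the 33 members above 10 CPM on either side, the share higher was below that of all genes in both libraries. The share lower was below that of all genes in the iron-negative and above it in the iron-positive library. In the iron-negative library Adm and P4ha2 passed the 10 CPM limit through the mesenchymal cells alone. Pfkfb4, at 4.598 and 5.628 CPM in these cells, passed it through the phagocytes alone in both libraries. P4ha2, the collagen prolyl hydroxylase subunit, was at 55.75 against 4.487 CPM and 65.38 against 11.53 CPM. Adm was at 60.06 against 2.052 CPM and 64.12 against 15.28 CPM, and Ankrd37 at 52.59 against 11.29 CPM and 94.83 against 23.65 CPM. Mxi1 was lower in both libraries, at 50.87 and 30.11 CPM. Without the 5 and 22 cells whose barcodes are in both libraries the medians were 0.37 and -0.41.

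**Figure D5:**
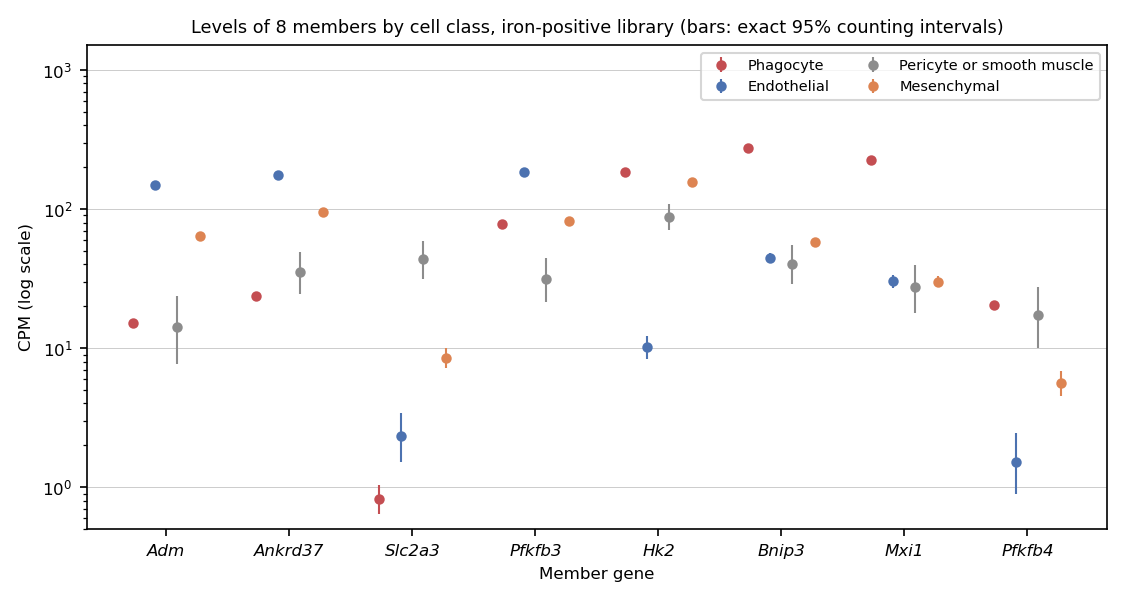
CPM of 8 members in phagocytes, endothelial, pericyte or smooth muscle and mesenchymal cells of the iron-positive library (log axis), with exact 95% counting intervals. Adm and Ankrd37 are highest in endothelial cells (148.2 and 175.6 CPM), Slc2a3 in pericytes (43.47 CPM), and Hk2, Bnip3 and Mxi1 in phagocytes (185.8, 277.1 and 223.7 CPM).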

How the data were processed

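Single-cell RNA was measured in 2 libraries, 1 for each magnetic column fraction. The authors deposited unnormalized UMI counts of each gene in each barcode. Cell Ranger and the mm10 build are named in the submitters' processing notes, with version 3.1.0, while a file header records 5.0.0. The version in use was not resolved. The members and gene lists were chosen with earlier results of these data known, and the scoring rules for gates were written after the data were seen.

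Phagocytes needed at least 5 distinct markers and 100 marker UMIs per 10000, other classes at least 3 markers and 20 per 10000, and cells with markers of 2 classes (29 and 192) were left out. No doublet caller was run. States took the highest mean z-score of log-scaled markers, at least 1.0, in phagocytes with at least 2000 UMIs, so the names are rebuilt from genes. Of the phagocytes, 1317 and 1063 had no state, and 61 and 347 lay within 20 per 10000 above the class limit.

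UMIs were summed per group and given as CPM. Log2 ratios added 0.5 to each count, genes needed 10 CPM on either side, and a difference counted past 1.5-fold. Members at 20 CPM or more in phagocytes of either library were named in full, with the 12 largest log2 ratios per comparison, those against their role, and 6 other pathway genes with Vegfa. The code was tested on simulated data. Sums and intervals used scipy 1.17.1 and numpy 2.4.6 in Python 3.11.15, tables pandas 2.3.3, clusters leidenalg 0.10.2 with scanpy 1.11.5 and scikit-learn 1.9.0, and plots matplotlib 3.10.9. Alternatives changed cell filters, scaling, depth, free RNA, gates, clustering and state weights.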

Additional observations from a re-analysis of the deposited data

Results flagged for a closer look

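The members' median log2 ratio in Cd209f Cd163 phagocytes over the other phagocytes was 0.46 in the iron-negative and -0.20 in the iron-positive library. It was picked out because the 2 libraries gave opposite signs for the same comparison, and the difference between them was not tested.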

How the results depend on the processing

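No paired analysis was possible because each fraction is 1 library. Of 13 alternatives each, the medians of Mmp12 Cd36 and Fcrls Cx3cr1 cells kept their sign in 13 in both libraries and that of Arg1 Mmp9 cells in 12 (clustering, below, gave no value of its own). No member above the limit was at least 1.5-fold lower in iron-positive phagocytes under any alternative. Leaving out shared barcodes, phagocytes under 2000 UMIs or the Mmp12 Cd36 state was chosen after seeing the data. Between the fractions, the medians for all members, glycolysis and the hypoxia response (0.23, 0.14 and 0.56) became -0.01, -0.08 and 0.18 with states weighted equally, 0.11, 0.04 and 0.35 without the Mmp12 Cd36 state, and 0.34, 0.25 and 0.67 with scaling by the median ratio over genes. With the mean of each cell's CPM they were 0.17 for all members and 0.48 for the hypoxia response, which was 0.46 with cells thinned to 1000 UMIs (277 and 1123 phagocytes left out) and 0.35 for members of 50 CPM or more. The 7 higher members became 3 at 50 CPM, 1 with equal state weights and 2 without the Mmp12 Cd36 state. In the last case Adm and P4ha2 fell under the 10 CPM limit. In iron-negative and iron-positive Mmp12 Cd36 cells the medians became 1.21 and 0.89 with median-ratio scaling and 1.20 and 0.81 in Leiden clusters, and the iron-positive one 0.65 thinned, 0.79 with 10% free RNA subtracted and 0.86 with a stricter gate. For Arg1 Mmp9 cells the closest Leiden cluster was that of Mmp12 Cd36 cells (1.20 and 0.81), which says nothing about them. Their medians became 0.73 and 0.55 with the stricter gate and 0.53 and 0.58 against phagocytes in no state, and the iron-negative one 0.69 with median-ratio scaling and 0.70 after subtraction. In Fcrls Cx3cr1 cells they became -0.45 and -0.68 with median-ratio scaling, -0.19 and -0.39 in Leiden clusters and -0.34 and -0.39 against cells in no state, and the iron-negative one -0.45 thinned, -0.45 after subtraction and -0.50 with the stricter gate. Signs turned for Cd209f Cd163 cells (-0.13 in the iron-negative Leiden cluster and 0.05 in the iron-positive library against cells in no state) and iron-negative MHC class II cells (0.02 with median-ratio scaling). The cause was not tested.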
